A study of Homo sapiens with 6 samples.

Results

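The SLC25 family is the set of carriers that move metabolites across the inner mitochondrial membrane. Its members were taken as all rows of the gene table whose symbol, without a running number such as _1, is SLC25A followed by a number, with the row of the highest mean kept where a symbol had more than 1 row. This gave 48 genes of 57773 in the table (49 rows, since SLC25A10 has a pair of them). Of the 48, 32 had a mean of at least 1 FPKM over the 6 libraries and were tested, and 16 lay under it and are given as levels only. Values are FPKM, that is reads scaled by the length of the gene and by the reads of the library, so levels of different genes can be set side by side.

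The libraries came from Hep3B, a human hepatocellular carcinoma cell line. Cells were transfected with a control siRNA (si-Cont, 3 libraries) or with siRNA against SMARCA4 (si-SMARCA4, 3 libraries), the gene of BRG1, a motor subunit of SWI/SNF remodellers. The comparison addresses which carrier transcripts differ between cells with and without this knockdown. The siRNA sequences and the time after transfection are not stated in the labels used here. Nothing says whether the 3 replicates were separate cultures, so each p-value speaks for the spread among these libraries alone, and that spread may be technical.

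SMARCA4 stood at 15.7, 19.5 and 16.6 FPKM in si-Cont and at 3.80, 3.78 and 4.01 FPKM in si-SMARCA4, so the targeted transcript was reduced to 22.3% and not removed. The hepatoma markers ALB (2269 and 1425 FPKM as group means) and AFP (213 and 116 FPKM) were abundant and were called lower, and SERPINA1 (256 and 321 FPKM) and TTR (12.2 and 18.8 FPKM), also made by hepatocytes, were called higher. APOA1, APOB and HNF4A, of the same marker list, were called lower as well (log2 fold changes of -0.37, -0.64 and -0.62). The leukocyte markers PTPRC and CD3E, the collagen gene COL1A2 and the endothelial marker CDH5 lay at or near 0 (0.0395 FPKM at most as a group mean). COL1A1 stood at 0.498 and 0.206 FPKM as group means. VIM, also listed as a marker of other cells, stood at 95.3 and 94.8 FPKM and was not called. Reads over genes came to 19023011 to 22651551 per library, and the tested carriers held 105 to 10551 reads each in a library. On the second principal component, with 8.58% of the variance, si-Cont replicate 2 (-11.0) lay apart from the other 5 libraries (-1.83 to 5.70), and calls that turn on this library are named below.

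By way of background, SLC25 carriers share a fold of repeated helix pairs and mostly work as exchangers: a substrate enters the matrix as another leaves. In the liver they link the cytosol with the citric acid cycle, the urea cycle, fatty acid oxidation and ATP synthesis. The citrate carrier supplies cytosolic acetyl-CoA for lipid synthesis, the ADP/ATP carriers export the ATP made by ATP synthase, and the aspartate/glutamate carriers drive the malate-aspartate shuttle.

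Differences between groups were tested with limma on log2(FPKM + 1) over all 11123 genes with a mean of at least 1 FPKM, and a gene is called at a Benjamini-Hochberg adjusted p under 0.05. A fold change on this scale understates the change of genes with low values. Of the 32 tested carriers, 13 were called lower and 5 higher in si-SMARCA4, and 14 were not called. Over all genes tested, 33.6% were called lower, 22.4% higher and 56.0% in either direction, so the shares of the carriers (40.6% lower and 15.6% higher) lay near the background on this scale and are no result about the family. Counts of calls in the substrate classes below are to be read against the same shares of all genes tested. The median log2 fold change was -0.10 over the tested carriers and -0.04 over all genes tested. With median-ratio, upper-quartile or quantile scaling 13 carriers were again called lower, with 7, 8 and 7 higher. Over all genes tested these scalings called 29.9%, 28.2% and 29.5% lower and 29.2%, 30.8% and 30.1% higher, so the distance of the carriers' lower share from the background depends on the scaling. The groups did not overlap for 19 of the 32 carriers, among them all 18 called ones, against 62.3% of all genes tested (25.7% higher and 36.6% lower). In bulk RNA, fewer cells that express a carrier and less RNA per cell cannot be told apart.

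**Figure D1:**
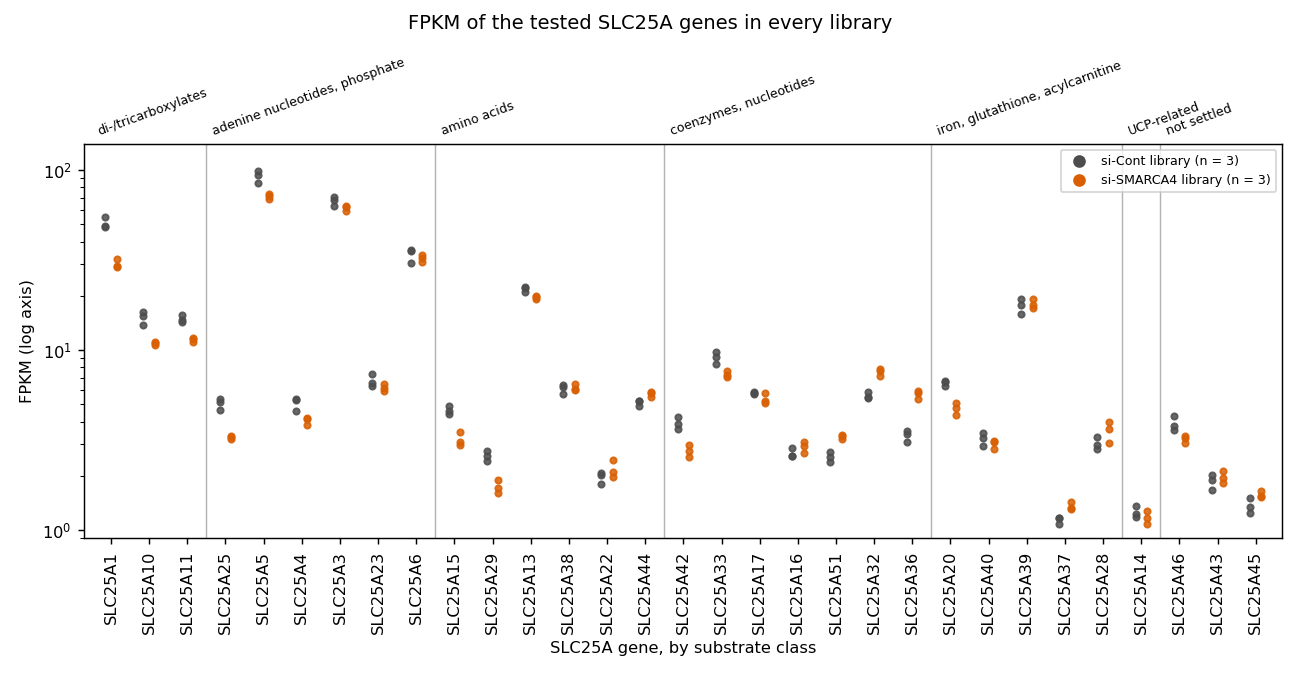
FPKM (log axis) of the tested SLC25A genes named in the text, ordered by substrate class and, within a class, by fold change. Each point is 1 library, grey for si-Cont and orange for si-SMARCA4 (n = 3 each); SLC25A5, SLC25A3, SLC25A1 and SLC25A6 have the highest levels.

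The family was dominated by a few members. SLC25A5, SLC25A3, SLC25A1 and SLC25A6 together held 59.1% of its summed FPKM in si-Cont and 55.8% in si-SMARCA4. The summed FPKM of all 48 members was 416, 386 and 435 in si-Cont and 354, 340 and 355 in si-SMARCA4, as a mean 413 ± 24.7 and 350 ± 8.37 (SD, n = 3 each). Every si-SMARCA4 library therefore lay under every si-Cont library. The summed FPKM of all genes was also lower after knockdown, at 159085 to 163933 per library against 167786 to 182293 for the controls. Part of the family's fall was thus shared with all genes. Reads over genes were a smaller part of the reads used to scale FPKM after knockdown (62.7% to 64.1%, controls 65.3% to 69.3%). The reason for this was not tested. The members as a share of the summed FPKM of all genes were 0.233% ± 0.00508 in si-Cont and 0.216% ± 0.00210 in si-SMARCA4 (SD, n = 3 each).

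Sequences in the 3′ untranslated regions were read for the carriers because genes whose 3′ untranslated region holds CTGTCCA or TGTCCAA were called lower more often over the whole table. These sequences were chosen on the same fold changes, so the matches are a description and no separate evidence. The longest annotated 3′ untranslated region of each gene was searched on the sense strand (GENCODE v29, GRCh38). CTGTCCA and TGTCCAA overlap each other in the 8 bases CTGTCCAA, and all of them hold the 6 bases TGTCCA. Over 10295 tested genes searched, 20.5% held a match of 7 or 8 bases, of which 44.7% were called lower and 17.3% higher. Genes with the 6 bases alone were called lower in 33.4% and higher in 23.1% of cases. Genes with none of the 4 sequences were called lower in 30.6% and higher in 24.7% of cases. A longer region is more likely to hold a match, and the length of the region was not taken into account. Of the 32 tested carriers 5 held a match of 7 or 8 bases. SLC25A15, SLC25A20, SLC25A25 and SLC25A29 were called lower, and SLC25A37 was called higher. The other 9 carriers called lower held none of 7 or 8 bases. The matches of the carriers called lower are given with 8 bases on either side, 5′ to 3′, and capitals mark the matched bases.
SLC25A25, site a: gggggttcCTGTCCAAccccagca
SLC25A25, site b: agtcacatCTGTCCAgagaaatt
SLC25A15: tatcatttCTGTCCAtaattgta
SLC25A29: caggctgcCTGTCCAtaaaatgg
SLC25A20: cacctctgTGTCCAAgtggattg

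The matched bases lay at chr9:128108445-128108452 and chr9:128108703-128108709 (forward strand) for SLC25A25, in 5 of its 6 coding transcripts. SLC25A15 had its match at chr13:40809850-40809856 (forward strand), in 1 of 2 coding transcripts. In SLC25A29 it lay at chr14:100291514-100291520 (reverse strand), in 3 of 7 coding transcripts. SLC25A20 held it at chr3:48857200-48857206 (reverse strand), in both of its coding transcripts. Which transcript these cells use was not examined.

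Among the carriers of di- and tricarboxylates, all 3 tested members fell. SLC25A1 (ENSG00000100075), the citrate carrier, stood at 48.4, 48.5 and 54.9 FPKM in si-Cont and at 29.1, 28.9 and 31.9 FPKM in si-SMARCA4. It fell to 59.2% of si-Cont (log2 fold change -0.74, SE 0.07, limma adjusted p = 5.6e-06). This was the largest change in size among the 32 tested carriers on this scale, whereas SLC25A36, described further on, changed more with upper-quartile scaling (0.67 against -0.67), quantile scaling (0.65 against -0.59) and limma voom on recovered reads (0.76 against -0.75). All si-SMARCA4 libraries lay well under all si-Cont libraries, with 1965 to 2056 reads against 2952 to 3608. In si-Cont the mean of SLC25A1 (50.6 ± 3.73 FPKM, SD, n = 3) lay above that of SLC25A6 (33.9 ± 3.08 FPKM). In si-SMARCA4 they stood at 30.0 ± 1.68 and 32.3 ± 1.60 FPKM, with overlapping values.

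SLC25A10, the dicarboxylate carrier, which exchanges malate or succinate for phosphate, stood at 15.3, 13.8 and 16.2 FPKM in si-Cont and at 10.6, 11.0 and 11.1 FPKM in si-SMARCA4 (log2 fold change -0.44, SE 0.06, limma adjusted p = 0.000115). A second row with this symbol, SLC25A10_1 (ENSG00000262660), stood at 1.93 and 1.54 FPKM as group means and was not called. In GENCODE v29 that gene spans the neighbouring MRPL12 and most of SLC25A10, so the split of reads between these rows is uncertain. SLC25A11, the oxoglutarate carrier of the malate-aspartate shuttle, stood at 14.7, 14.3 and 15.7 FPKM in si-Cont and at 11.7, 11.0 and 11.4 FPKM in si-SMARCA4 (log2 fold change -0.36, SE 0.05, limma adjusted p = 0.000155). Neither gene had overlapping groups. The ratio of SLC25A11 to SLC25A10 within a library was 0.988 in si-Cont and 1.05 in si-SMARCA4 on average, and its groups overlapped. SLC25A21, the oxoadipate carrier, had 34 to 54 reads per library and stood at 0.361 and 0.358 FPKM as group means.

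**Figure D2:**
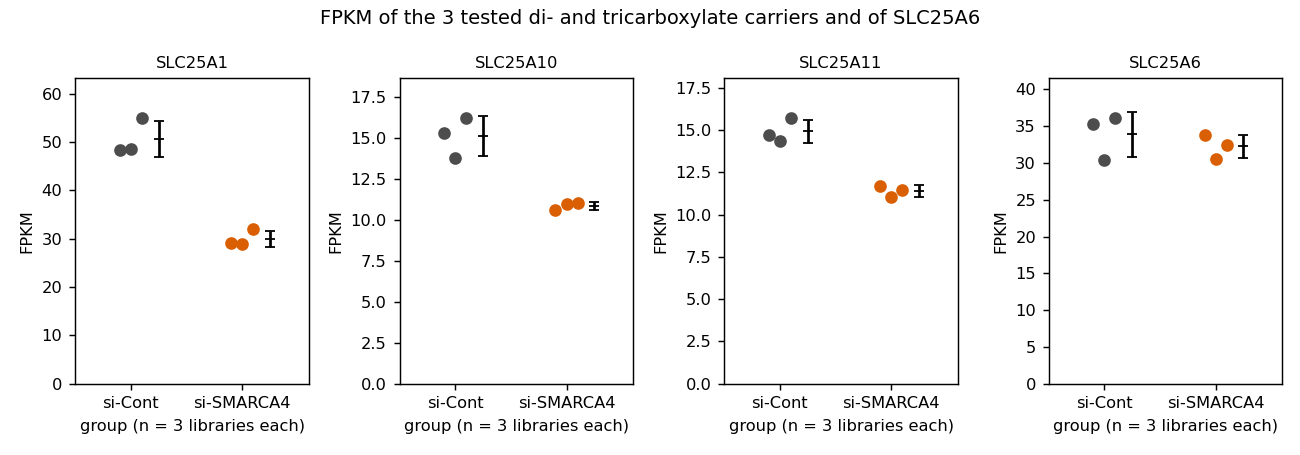
FPKM of SLC25A1, SLC25A10, SLC25A11 and SLC25A6 by group; points are libraries and bars show the mean ± SD (n = 3 each). The first 3 genes have separate groups, while SLC25A6 spans 30.4 to 36.1 FPKM in si-Cont and 30.6 to 33.8 FPKM in si-SMARCA4.

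Carriers of adenine nucleotides and phosphate made up the most abundant class, and 3 of its 6 tested members fell. SLC25A5 (ANT2), the main ADP/ATP carrier of these cells by level, stood at 93.8, 84.9 and 98.0 FPKM in si-Cont and at 73.2, 69.2 and 71.2 FPKM in si-SMARCA4 (77.2% of si-Cont, log2 fold change -0.37, SE 0.06, limma adjusted p = 0.000655). SLC25A4 (ANT1), the heart and muscle form, stood at 5.34, 4.61 and 5.26 FPKM in si-Cont and at 4.11, 3.85 and 4.18 FPKM in si-SMARCA4 (log2 fold change -0.26, SE 0.06, limma adjusted p = 0.00255). The groups of neither gene overlapped.

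SLC25A6 (ANT3) stood at 35.3, 30.4 and 36.1 FPKM in si-Cont and at 33.8, 30.6 and 32.4 FPKM in si-SMARCA4, with overlapping groups (log2 fold change -0.07, SE 0.07, limma adjusted p = 0.442). Its sign turned with upper-quartile and quantile scaling, and without si-Cont replicate 2 it was called lower (log2 fold change -0.14, limma adjusted p = 0.0174, in a range of 0.0174 to 0.981 over the alternatives). SLC25A31 (ANT4), the testis form, had 0 or 1 read per library. The ratio of SLC25A5 to SLC25A6 within a library was 2.66, 2.79 and 2.71 in si-Cont and 2.17, 2.26 and 2.20 in si-SMARCA4, without overlap. That difference of -0.30 in log2 had an exact permutation p of 0.1 (two-sided), the smallest that 3 against 3 libraries can give, and 0.3 when adjusted over the 6 pairs of related carriers in which both were tested. The ratio of SLC25A4 to SLC25A5 was 0.0550 and 0.0568 on average, with overlapping groups. ADP/ATP carriers have many processed pseudogenes. The table lists 40 pseudogene rows of the family, 38 of them at 0 in every library and the others at up to 0.0630 FPKM, and how reads shared with such copies were assigned is not stated.

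SLC25A3, the phosphate carrier, which also brings in copper, stood at 68.3, 62.6 and 70.7 FPKM in si-Cont and at 63.2, 59.4 and 62.3 FPKM in si-SMARCA4. Its groups overlapped and it was not called (log2 fold change -0.12, SE 0.06, limma adjusted p = 0.113). It was called lower with replicate number as a block (adjusted p = 0.0387) and without si-Cont replicate 2 (adjusted p = 0.00328), in a range of 0.00328 to 0.363 over the alternatives, and its sign turned with quantile scaling. Among the ATP-Mg/phosphate carriers, SLC25A25 stood at 5.17, 4.66 and 5.36 FPKM in si-Cont and at 3.20, 3.34 and 3.27 FPKM in si-SMARCA4. It fell to 64.6% of si-Cont (log2 fold change -0.50, SE 0.05, limma adjusted p = 1.94e-05) and is the carrier with the 2 sites shown above. SLC25A23, of the same calcium-regulated kind, stood at 6.73 ± 0.528 and 6.18 ± 0.271 FPKM (SD, n = 3 each) and was not called. SLC25A24, the third of that kind, had 0 to 5 reads per library and so was hardly detected in these cells, and SLC25A41 had 1 to 8.

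**Figure D3:**
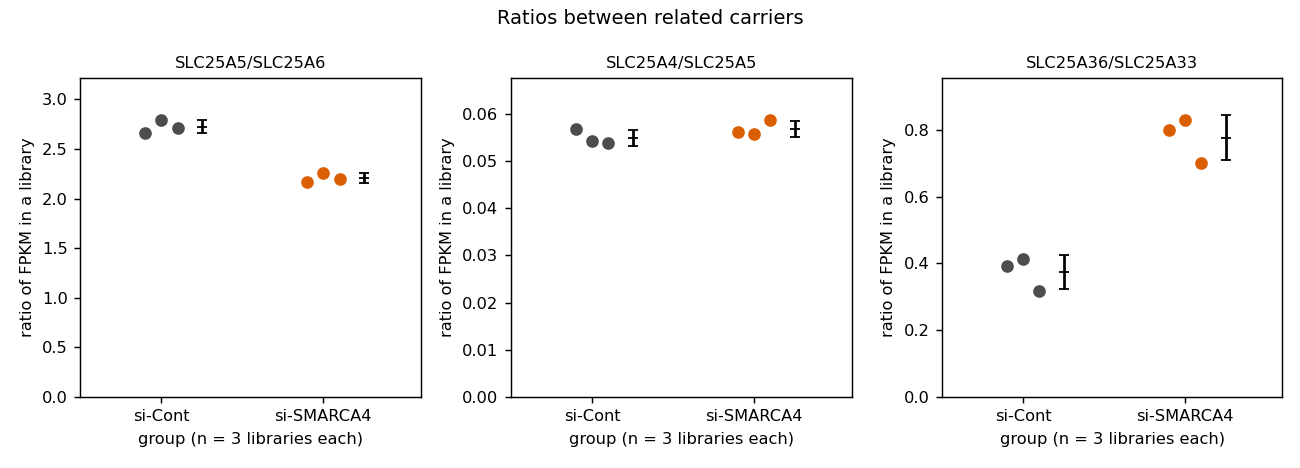
Ratios of FPKM between related carriers within each library; points are libraries and bars show the mean ± SD (n = 3 each). SLC25A5/SLC25A6 was lower and SLC25A36/SLC25A33 higher in every si-SMARCA4 library, while the groups of SLC25A4/SLC25A5 overlapped.

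Of the 6 tested amino acid carriers, 3 fell and 1 rose. SLC25A15 (ORC1), the ornithine carrier of the urea cycle, stood at 4.89, 4.58 and 4.40 FPKM in si-Cont and at 3.09, 2.96 and 3.49 FPKM in si-SMARCA4 (68.8% of si-Cont, log2 fold change -0.43, SE 0.06, limma adjusted p = 0.000122). SLC25A29, a carrier of basic amino acids, stood at 2.41, 2.75 and 2.59 FPKM in si-Cont and at 1.90, 1.61 and 1.70 FPKM in si-SMARCA4 (67.2% of si-Cont, log2 fold change -0.39, SE 0.06, limma adjusted p = 0.000248). The groups of neither gene overlapped, and both genes hold 1 of the sites shown above. SLC25A2 (ORC2), the other ornithine carrier, had 2 to 10 reads per library.

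SLC25A13 (citrin), the aspartate/glutamate carrier of liver, was the fifth most abundant member and fell slightly, from 21.8 ± 0.811 to 19.6 ± 0.458 FPKM (SD, n = 3 each; log2 fold change -0.15, SE 0.05, limma adjusted p = 0.0246). Its call was lost when any library other than si-Cont replicate 2 was left out (adjusted p of 0.0547 to 0.110, in a range of 0.00168 to 0.110 over the alternatives). SLC25A12 (aralar), the form of muscle and brain, lay under the level tested. It stood at 0.381, 0.272 and 0.307 FPKM in si-Cont and at 0.658, 0.583 and 0.722 FPKM in si-SMARCA4, with 41 to 65 reads against 98 to 115 and no overlap. SLC25A44, a carrier of branched-chain amino acids, rose from 5.09 ± 0.195 to 5.70 ± 0.200 FPKM (log2 fold change 0.14, SE 0.05, limma adjusted p = 0.031). That call was lost without si-SMARCA4 replicate 1 or 3 and with no filter on low values (adjusted p of 0.126, 0.0932 and 0.0540, in a range of 0.00154 to 0.126). The glutamate carrier SLC25A22 and the glycine carrier SLC25A38 were not called, and the glutamate carrier SLC25A18 had 5 to 18 reads per library.

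Carriers of coenzymes and nucleotides moved both ways, with 3 of 8 tested members higher and 2 lower. SLC25A36 (PNC2), a pyrimidine nucleotide carrier, stood at 3.56, 3.43 and 3.09 FPKM in si-Cont and at 5.77, 5.89 and 5.36 FPKM in si-SMARCA4. It rose to 169% of si-Cont (log2 fold change 0.61, SE 0.06, limma adjusted p = 6.27e-06), the largest rise among the tested carriers. SLC25A33 (PNC1), the other pyrimidine nucleotide carrier, stood at 9.08, 8.32 and 9.72 FPKM in si-Cont and at 7.21, 7.10 and 7.65 FPKM in si-SMARCA4 and fell (81.0% of si-Cont, log2 fold change -0.27, SE 0.06, limma adjusted p = 0.00255). The ratio of SLC25A36 to SLC25A33 within a library was 0.392, 0.413 and 0.318 in si-Cont and 0.800, 0.831 and 0.701 in si-SMARCA4. This difference of 1.06 in log2 was the largest of the 6 pairs, with an exact permutation p of 0.1 and 0.3 adjusted over the pairs.

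SLC25A32, which brings folate and FAD into mitochondria, stood at 5.80, 5.41 and 5.51 FPKM in si-Cont and at 7.86, 7.65 and 7.20 FPKM in si-SMARCA4 (136% of si-Cont, log2 fold change 0.38, SE 0.05, limma adjusted p = 8.28e-05). SLC25A51, the NAD carrier, stood at 2.72, 2.39 and 2.55 FPKM in si-Cont and at 3.35, 3.20 and 3.33 FPKM in si-SMARCA4 (129% of si-Cont, log2 fold change 0.27, SE 0.05, limma adjusted p = 0.001). Its near copy SLC25A52 had 0 or 1 read per library, and how reads common to both were assigned is not stated. In the other direction, SLC25A42, a coenzyme A carrier, stood at 3.87, 4.24 and 3.62 FPKM in si-Cont and at 2.97, 2.53 and 2.74 FPKM in si-SMARCA4 (70.3% of si-Cont, log2 fold change -0.39, SE 0.06, limma adjusted p = 0.000342). The groups of these 3 called genes did not overlap. The peroxisomal carrier SLC25A17 and the coenzyme A related SLC25A16 were not called. With upper-quartile scaling SLC25A16 was called higher (log2 fold change 0.14, limma adjusted p = 0.0493, in a range of 0.0493 to 0.524 over the alternatives). The S-adenosylmethionine carrier SLC25A26 stood at 0.973 ± 0.154 and 0.757 ± 0.0914 FPKM (SD, n = 3 each), under the level tested.

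In the class of iron, glutathione and acylcarnitine carriers all 5 members were tested, and 1 fell and 1 rose. SLC25A20, the carnitine/acylcarnitine carrier, which brings long-chain fatty acids into the matrix for oxidation, stood at 6.60, 6.30 and 6.74 FPKM in si-Cont and at 5.04, 4.76 and 4.37 FPKM in si-SMARCA4. It fell to 72.1% of si-Cont (log2 fold change -0.40, SE 0.05, limma adjusted p = 0.00011) without overlap, and it holds 1 of the sites shown above. SLC25A39, a glutathione carrier and the sixth most abundant member, stood at 17.6 ± 1.72 and 18.0 ± 1.01 FPKM, and its relative SLC25A40 at 3.21 ± 0.272 and 2.99 ± 0.166 FPKM (SD, n = 3 each), neither called.

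The mitoferrins carry iron for haem and iron-sulphur clusters. SLC25A37 (mitoferrin-1) also holds a match of 7 or 8 bases in its 3′ untranslated region. It rose from 1.13 ± 0.0459 to 1.35 ± 0.0730 FPKM (SD, n = 3 each; log2 fold change 0.14, SE 0.05, limma adjusted p = 0.0445). This call was lost when any library other than si-Cont replicate 2 was left out, with no filter on low values and with replicate number as a block (adjusted p = 0.0567 with the block, in a range of 0.0138 to 0.158 over the alternatives). SLC25A28 (mitoferrin-2), the form of most tissues, stood at 3.02 ± 0.238 and 3.55 ± 0.477 FPKM and was not called (adjusted p = 0.073). With replicate number as a block, with each of the 3 other scalings and without si-Cont replicate 3 or si-SMARCA4 replicate 2 it was called higher (adjusted p = 0.013 with the block, in a range of 0.0103 to 0.273).

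**Figure D4:**
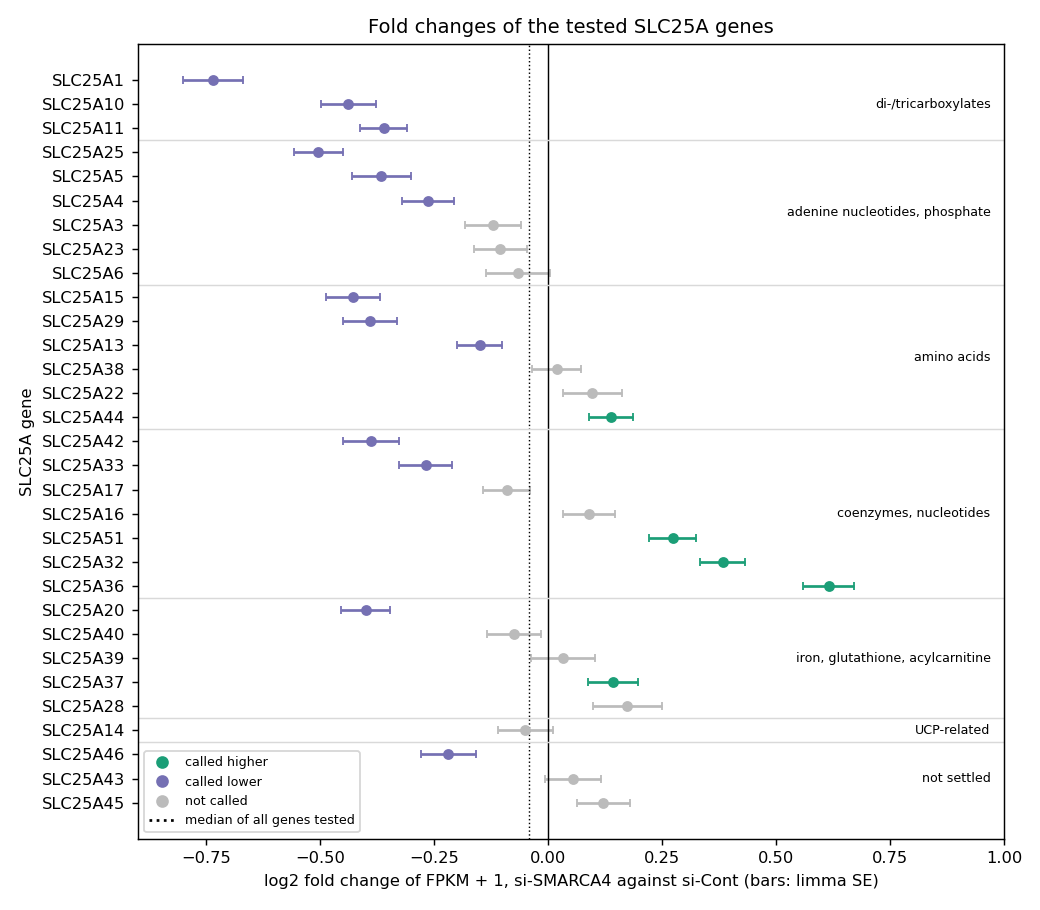
Log2 fold change of FPKM + 1 (si-SMARCA4 against si-Cont) of the tested SLC25A genes named in the text, by substrate class; bars are limma standard errors and the dotted line is the median of all genes tested. Purple marks 13 genes called lower, green 5 called higher and grey those not called; all 3 di- and tricarboxylate carriers lie on the lower side, and the coenzyme and nucleotide carriers on both sides.

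Of the carriers related to uncoupling proteins, SLC25A14 (UCP5) stood at 1.25 and 1.17 FPKM as group means and was not called. SLC25A30 (0.749 and 0.756 FPKM) and SLC25A27 (0.452 and 0.646 FPKM) lay under the level tested. Among 8 carriers with no class here, SLC25A46, which sits in the outer membrane and acts in mitochondrial shape, fell from 3.89 ± 0.360 to 3.20 ± 0.158 FPKM (SD, n = 3 each; log2 fold change -0.22, SE 0.06, limma adjusted p = 0.00968). Its call was lost with no filter on low values (adjusted p = 0.0507, in a range of 0.00233 to 0.0507). SLC25A43 and SLC25A45 were not called. SLC25A45 stood at 1.36 and 1.56 FPKM without overlap and was called higher with each of the 3 other scalings, without si-Cont replicate 3 and with limma voom on recovered reads (adjusted p of 0.0312 to 0.0486, in a range of 0.0312 to 0.285 over the alternatives). The liver-enriched SLC25A47 had 4 to 9 reads per library and SLC25A34 3 to 11. SLC25A48 had 0 to 2. SLC25A35 stood at 0.408 and 0.327 FPKM, and SLC25A53 at 0.318 and 0.258 FPKM, as group means.

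**Figure D5:**
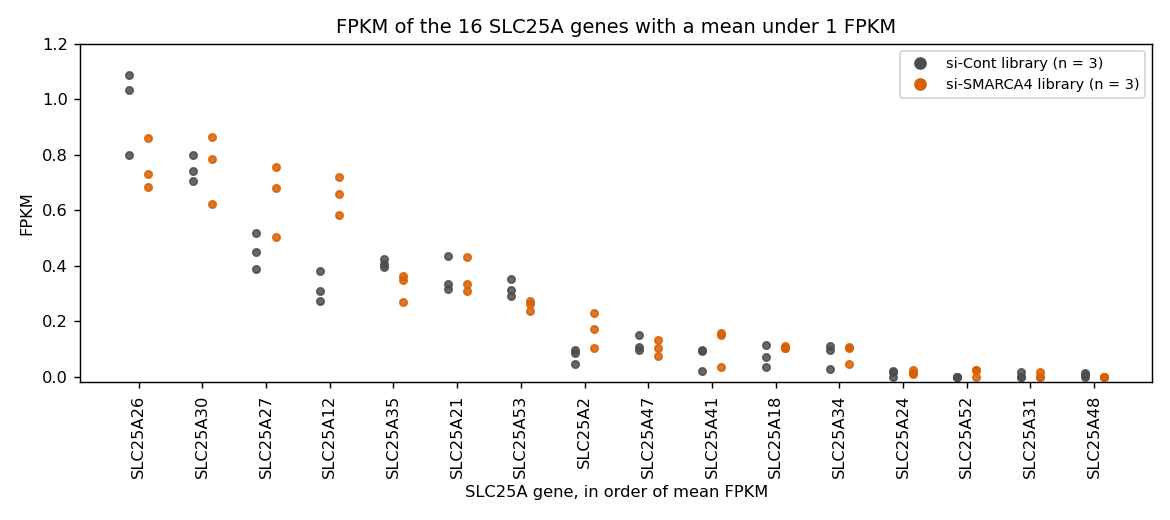
FPKM of the 16 SLC25A genes with a mean under 1 FPKM, in order of their mean; each point is 1 library, grey for si-Cont and orange for si-SMARCA4 (n = 3 each). SLC25A12 stands at 0.272 to 0.381 FPKM in si-Cont and at 0.583 to 0.722 FPKM in si-SMARCA4.

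Promoters were searched for the motif of NRF1, a known activator of nuclear genes for mitochondrial proteins, as GCGCA, any base and GCGC in a row, on both strands, from 250 bases before to 50 bases after the start site (RefSeq, GRCh38.p14). It was present in 5.80% of 34960 promoters and in those of 5 of the 40 carriers with an entry. For this motif and those below, the share over all is counted per promoter. A carrier was counted once if any of its promoters held the motif, so the shares cannot be compared directly. These 5 carriers did not share a direction: SLC25A11 was called lower, SLC25A51 higher and SLC25A3 neither, while SLC25A31 and SLC25A52 were hardly detected. In the same windows, AAGATGGC, bound by YY1, was present in 2.89% of all promoters and in 2 of the 40 (SLC25A3 and SLC25A44), and AAGGTCA, bound by the oestrogen-related receptors, in 3.92% of all and in 1 of the 40 (SLC25A34). The matches of the 3 tested carriers are shown 5′ to 3′ along the gene, with the motif, here on the opposite strand, in capitals.
SLC25A11, chr17:4940054-4940063: tgcgctgcGCGCCTGCGCccgcgccg
SLC25A51, chr9:37904113-37904122: cacagtctGCGCCTGCGCgggccccg
SLC25A3, chr12:98593472-98593481: cggaacgcGCGCCTGCGCagaacgaa

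Genes that work with the carriers were taken from 4 lists. Counts in each list are to be read beside the shares over all genes tested, 33.6% called lower and 22.4% higher. Of family members under other symbols, 5 of 8 listed symbols were in the table and both tested ones fell. These were the outer membrane proteins MTCH1, from 49.5 ± 2.91 to 30.1 ± 0.536 FPKM (log2 fold change -0.70, limma adjusted p = 2.72e-06), and MTCH2, an insertase, from 54.9 ± 2.42 to 38.1 ± 1.80 FPKM (SD, n = 3 each; log2 fold change -0.52, limma adjusted p = 3.02e-05). The uncoupling protein genes UCP1, UCP2 and UCP3 lay under 1 FPKM, with 0 to 28 reads per library. Of the genes that import carriers through the TOM70 and TIM22 route, 5 fell and 1 rose of 13 tested. AGK, a subunit of the TIM22 complex, fell from 3.63 to 2.17 FPKM, the small chaperone gene TIMM8B from 22.3 to 16.9 FPKM and the channel gene TOMM40 from 24.1 to 19.5 FPKM. The median log2 fold change over this list was -0.08, against -0.04 over all genes tested.

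Of other mitochondrial membrane transporters, 5 fell and 2 rose of 17 tested, with a median log2 fold change of -0.04, the same as over all genes tested. MPC2, a subunit of the mitochondrial pyruvate carrier, fell from 86.9 ± 4.38 to 51.4 ± 1.38 FPKM (SD, n = 3 each; log2 fold change -0.75, limma adjusted p = 1.94e-06), while its partner MPC1 stood at 12.4 FPKM in both groups and was not called. The sideroflexin genes SFXN1, a serine transporter, and SFXN5 rose from 6.05 to 7.51 FPKM and from 2.13 to 2.60 FPKM. In the same gene family SFXN3 fell from 2.51 to 2.19 FPKM, SFXN4 was not called, and SFXN2, under the level tested, stood at 1.26 and 0.559 FPKM as group means without overlap. Of enzymes fed by the carriers, 8 fell and 1 rose of 14 tested, with a median of -0.16. GLUD1, glutamate dehydrogenase, fell from 129 ± 6.92 to 50.9 ± 2.37 FPKM (SD, n = 3 each; log2 fold change -1.32, limma adjusted p = 6.39e-08). CPT1A, which makes the acylcarnitines carried by SLC25A20, fell to 41.3% of si-Cont. GOT1, the cytosolic aspartate aminotransferase of the malate-aspartate shuttle, rose from 21.2 to 31.7 FPKM as group means (log2 fold change 0.56, limma adjusted p = 4.22e-05). The other shuttle enzymes listed, MDH1, GOT2 and MDH2, were called lower (log2 fold changes of -0.41, -0.30 and -0.24, limma adjusted p of 0.000334, 0.000914 and 0.00383). The urea cycle genes OTC and CPS1 lay under 1 FPKM in both groups.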

How the data were processed

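The FPKM values are those deposited by the authors, for total RNA of 6 Hep3B libraries, and the hg19 build is named per the submitters' processing notes. No source used here gives the aligner, the counting program, the annotation or the strandedness. Groups and replicate numbers came from the sample titles. Substrate classes, gene lists and the choice of members were made with earlier results of these data known.

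Whole reads were recovered from the FPKM steps for 25119 of 25119 genes above 0 at a relative tolerance of 1e-08, where the recovered reads of a gene can share an undetected common factor. They speak for counting error only. The main test was limma 3.58.1 in R 4.3.3 (trend, two-sided) on log2(FPKM + 1), since the deposited values are FPKM and not counts. Values were given per library for called members among the 12 with the largest changes, for ADP/ATP and phosphate carriers above a mean of 1 FPKM and for the 3 most abundant members, and for lists the 3 tested genes with the smallest p. SLC25A33, SLC25A12, MPC1, SFXN2, SFXN3, SFXN4, the uncoupling protein genes, MDH1, GOT2, MDH2, OTC and CPS1 were added after their values were seen. The procedure was tested on simulated reads, with the same extra spread for every gene, few genes changed and no effect of single libraries. These settings differ from the data, so that test cannot show how often calls here are right. Values of 1 tested carrier are not reported here, but it is part of all counts.

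Libraries with the same replicate number deviated together from their group means (correlations of 0.215, 0.181 and 0.162), so limma was also fitted with a replicate block. The main test and the exact permutation tests did not treat the numbers as pairs. Other alternatives were pseudocounts of 0.1 and 5, other filters and scalings, other limma settings, summed rows and leaving out each library. Limma voom on the recovered reads was chosen after seeing the data. Tables and exact permutation tests were computed in Python 3.11.15 with pandas 2.3.3 and scipy 1.17.1, and plots with matplotlib 3.10.9.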

Additional observations from a re-analysis of the deposited data

How the results depend on the processing

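SMARCA4 kept its direction and call under all alternatives run. Of the 18 called carriers, 14 kept their call in every alternative in which they were tested, and none changed sign. SLC25A13, SLC25A37, SLC25A44 and SLC25A46 lost theirs in 16 of 315 comparisons over called carriers. With genes of a mean of at least 5 FPKM only, 6120 genes and 15 carriers were left to test; 1387 genes and 2 carriers were called higher, 2296 genes and 7 carriers lower. Upper-quartile scaling gave 8 carriers called higher. Leaving out each library in turn gave 3 to 6 carriers called higher, with 3 without si-SMARCA4 replicate 1 or 3, and 12 to 16 called lower, with 16 without si-Cont replicate 2. In the same fits 18.2% to 23.7% of all genes tested were called higher and 27.6% to 40.5% lower, with 40.5% (4505 genes) without si-Cont replicate 2. The cause was not tested. Among carriers that were not called, the log2 fold change of SLC25A6 turned to 0.0015 with upper-quartile and 0.0751 with quantile scaling. That of SLC25A3 turned to 0.0281 with quantile scaling. Leaving out each library gave -0.0245 to 0.0449 for SLC25A38 and -0.0376 to 0.0959 for SLC25A39, and -0.0646 to 0.0978 for the log2 ratio of SLC25A37 to SLC25A28. The replicate block, with 2710 genes called higher and 4050 lower, changed the calls of SLC25A3, SLC25A28 and SLC25A37 and of no other carrier, and gave 5 higher and 14 lower. Both planned count-model fits were not run, because the deposited values are FPKM. Limma voom on recovered reads was run in their place. It called 6 carriers higher and 13 lower, against 23.1% and 34.2% of all genes tested. With no filter on low values all 48 carriers were tested, and 4 were called higher and 12 lower. In that fit 11.0% of 25119 genes were called higher and 14.3% lower. Of its called carriers 15 were also called in the main test, and a carrier under 1 FPKM was called higher. In the main test genes under 1 FPKM are given as levels only. That limit is on FPKM and not on reads. Tested carriers held 105 reads at the least in a library, and SLC25A30, under the limit, held 129 to 191.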
